A study of Mus musculus with 36 samples.

Results

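The genes described here are 9 redox genes of mouse bone cells. Cybb, Cyba, Ncf1 and Ncf4 encode subunits of the phagocyte NADPH oxidase, and Nfe2l2, Bach1, Nqo1, Gclm and Txnrd1 belong to the NRF2 antioxidant pathway. They were chosen by gene symbol, and all 9 were found among the 30284 genes quantified. RNA was sequenced from primary cells of 20-week-old wild-type (WT) mice and of Mir324-null mice (null), which lack 1 microRNA gene. Bone marrow macrophages (BMM) were grown from marrow for 3 days in 100 ng/mL M-CSF, the macrophage growth factor, and then for 5 days in 30 ng/mL. Osteoclast cultures (OC) came from the same precursors and differed only by 50 ng/mL RANK-L, the osteoclast-inducing cytokine, over those 5 days. Osteoblasts (OB) grew out of bone chips over about 6 weeks and then spent 18 days in medium with 2 mM β-glycerophosphate and 50 µg/mL ascorbic acid. Each of the 6 groups had 6 libraries. The labels do not say whether a library came from 1 mouse or from a pool, nor name a strain, a batch or the cells in which Mir324 is lost. The p-values below therefore measure the spread between these libraries, and genotype cannot be told apart from any batch that ran with it.

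The phagocyte NADPH oxidase passes electrons from NADPH to oxygen to make superoxide. Its membrane core is a pair of proteins, the catalytic subunit NOX2 from Cybb and its partner from Cyba, and cytosolic subunits, among them those from Ncf1 and Ncf4, join it with a RAC GTPase when the cell is activated. Macrophages use it against microbes, and reactive oxygen species also act as signals during osteoclast formation downstream of RANK. NRF2, the product of Nfe2l2, is the transcription factor that turns on antioxidant genes. KEAP1 keeps NRF2 low under resting conditions, BACH1 competes with it for the same DNA elements, and Nqo1, Gclm and Txnrd1 are classical NRF2 target genes.

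Libraries held 14118972 to 26347581 estimated counts, and levels are given as CPM, a count scaled to library size. Of 8 osteoclast markers, the summed level was 28963 to 31251 CPM in WT OC against 337 to 704 CPM in null OC, so the libraries labelled null OC lacked most of the defining osteoclast signal and "OC" below means cultures given RANK-L. The sum of 8 macrophage markers was 11900.5 to 14301 CPM in WT OC against 47936 to 57874 CPM in null OC. The OB groups carried osteoblast markers at 54055 to 77992 CPM in WT against 95796 to 115893 CPM in null, and also macrophage markers at 12407 to 15491 CPM in WT against 6743 to 9665 CPM in null. Osteoblast markers summed to 10.1 to 27.6 CPM in WT BMM against 53.1 to 127 in null BMM and to 12.9 to 15.02 CPM in WT OC against 55.5 to 265 in null OC. The 10 neutrophil markers summed to 2.71 to 4.30 CPM in WT BMM against 8.47 to 21.1 in null BMM and to 4.14 to 5.09 CPM in WT OC against 8.32 to 11.9 in null OC. Neither sum overlapped between genotypes in BMM or OC. Of the neutrophil markers, S100a9, Ly6g, Ltf, Ngp, Mpo, Elane and Retnlg did not exceed 3 counts in any BMM or OC library. Of the osteoblast markers, Bglap and Sp7 did not exceed 3 counts there, nor did Dmp1 in null OC. In OB the neutrophil sum was at most 6.28 CPM, and S100a9, Ly6g, Ltf, Ngp, Elane and Retnlg did not exceed 3 counts in any. The 5 adipocyte markers summed to at most 23.8 CPM, with 1.38 to 2.72 CPM in WT OC against 11.0 to 18.0 in null OC, and Plin1, Cidec and Lep did not exceed 3 counts. In these bulk libraries fewer cells of a type and less RNA per cell cannot be told apart. No level of the targeted gene, Mir324, was analysed here, and the genotype labels therefore have no check from it. Null OC replicates 3 and 6 stood apart by a low Bach1 level, and results whose call or direction changes without them are given without them too. They also had the smallest scaled library sizes of null OC, its lowest Cybb and Nfe2l2 levels and its highest Cyba and Nqo1 levels.

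The microRNA that the null mice lack is encoded on chromosome 11 (hairpin at 70012043 to 70012131, + strand, RefSeq annotation of GRCm38.p6). Its 2 mature arms are shown because their seeds, bases 2 to 8 in capitals, define the matches searched for in the redox genes.
mmu-miR-324-5p: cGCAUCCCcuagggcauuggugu
mmu-miR-324-3p: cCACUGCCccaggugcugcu
The complement of the 5p seed, GGGATGC, was looked for in the longest annotated 3′ UTR among the quantified transcripts of each of the 9 genes. The shares over all genes used the longest 3′ UTR of any annotated transcript, quantified or not, so they are not strictly alike. The 5p letters occurred in 1 of the 9 genes, Bach1, against 8.183% of 21166 genes. The complement of the 3p seed, GGCAGTG, occurred in 3 of the 9, Ncf1, Gclm and Txnrd1, against 14.112% of genes. The matches, in capitals with 8 bases on each side, were as follows in the 5′ to 3′ direction of the transcript.
Bach1, chr16:87732480-87732502, + strand: tgggggggGGGATGCagaagaca
Ncf1, chr5:134221572-134221594, − strand: tgagaggaGGCAGTGagcgctgc
Gclm, chr3:122270305-122270327, + strand: atgggaaaGGCAGTGagagaaat
Txnrd1, chr10:82896312-82896334, + strand: aagtggtgGGCAGTGacagaaga
These coordinates are GRCm38. The Txnrd1 match lay in the transcript that carried all of that gene's TPM (the length-scaled transcript share deposited with the counts), and the Ncf1 match lay in the leading transcript, Ncf1-202, with 94.5%. The Bach1 match lay in Bach1-201, which held 77.1% of the TPM of Bach1. The Gclm match lay only in Gclm-201, which held 12.8% of the TPM of Gclm. Cybb, Cyba, Ncf4, Nfe2l2 and Nqo1 held neither run of letters in these UTRs. Such a match is a description of the sequence and was not tested as a target site.

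Null libraries had higher levels of most of these genes in macrophages and in RANK-L cultures, and lower levels of the 4 oxidase genes, Nfe2l2 and Nqo1 in osteoblast cultures. In BMM 8 of the 9 genes were higher in null libraries and none was lower, where 27.0% of the 11935 genes tested were higher, 25.3% lower and 52.4% changed in either direction (edgeR quasi-likelihood test, Benjamini-Hochberg adjusted p under 0.05). In OC 7 were higher and none lower, also without null replicates 3 and 6, where 32.4% of 12129 genes were higher, 33.1% lower and 65.5% changed. In OB none was higher and 6 were lower, where 15.5% of 13614 genes were higher, 16.9% lower and 32.5% changed. Of these 6, the Ncf4 call was lost in 9 of 12 fits with 1 library removed, and the Nfe2l2 call in 1 of 12. Under a correction for transcript length and GC content the Ncf4 and Nqo1 calls in OB were lost. The median log2 ratio of the 9 genes was 1.19 in BMM, 1.13 in OC and −0.32 in OB, beside medians over all genes tested of 0.02, −0.03 and 0.00. The macrophage marker sum moved with genotype as well, at 38487 to 49925 CPM in WT BMM against 50434 to 59037 CPM in null BMM and as given above for OC and OB. In OC the osteoclast marker sum was lower in null libraries, and the low neutrophil and osteoblast sums given above were higher in null BMM and OC. In those null groups 7 of the 10 neutrophil markers, and the osteoblast markers Bglap and Sp7, did not exceed 3 counts, so these sums rest on the other markers. The part of these marker sums in the results below was not tested. The genes were chosen with earlier results of these data known, so these counts describe them and do not test the pathway. The adjusted p-values below come from the same edgeR test unless another is named.

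**Figure D1:**
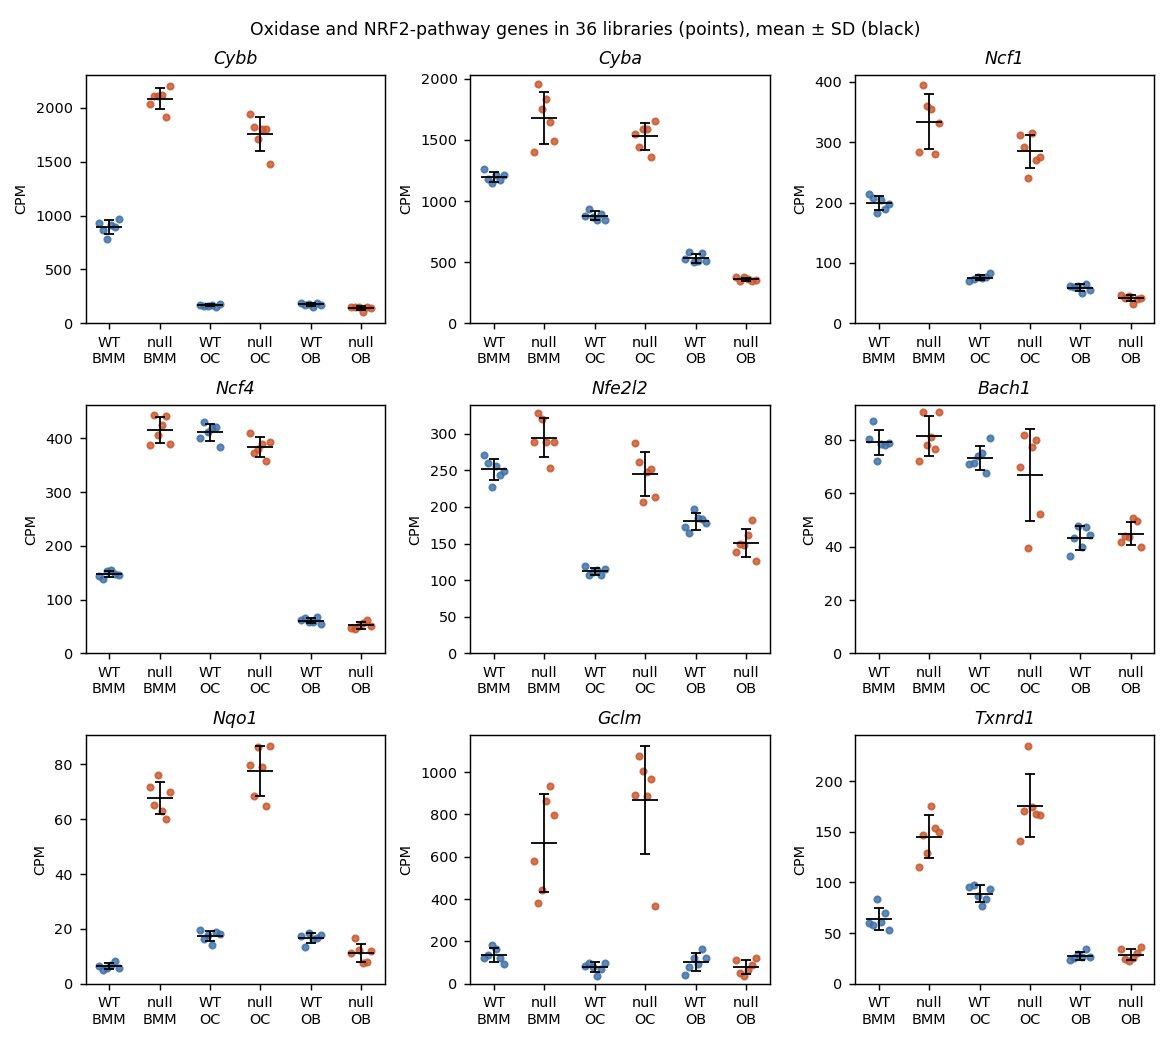
Level of each of the 9 genes in CPM (y axis, starting at 0) in the 36 libraries by group (x axis), WT in blue and null in red, with the group mean and SD in black. Null BMM and null OC points sit above all WT points of the same cell type for Cybb, Cyba, Ncf1, Nqo1, Gclm and Txnrd1, while Bach1 points overlap in every cell type.

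Cybb (X chromosome, 9435252 to 9487771, − strand, GRCm38) encodes NOX2, the catalytic subunit. The lowest, median and highest of 6 libraries were 784, 904 and 966 CPM in WT BMM against 1919, 2110.3 and 2203 CPM in null BMM. They were 152, 166 and 180.0 CPM in WT OC against 1477, 1802 and 1942 CPM in null OC. Neither pair of groups overlapped, and the lowest null OC library lay far above the highest WT OC library. The log2 ratio of null to WT was 1.23 (SE 0.06, adjusted p = 9.98e-11) in BMM and 3.41 (SE 0.07, adjusted p = 2.10e-16) in OC. In OB the order was turned round, with 149, 175 and 192 CPM for WT against 104, 148 and 156 for null. These OB groups overlapped, and the log2 ratio was −0.32 (SE 0.09, adjusted p = 0.0151). Replicate 4 of null OB held the lowest value.

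Cyba (chromosome 8, 122424776 to 122432930, − strand) encodes the partner that stabilises NOX2 and other NOX enzymes in the membrane. It gave 1146, 1196 and 1260.4 CPM in WT BMM against 1403, 1699 and 1955 CPM in null BMM. The OC libraries held 842, 875 and 939 CPM for WT against 1358, 1568 and 1655 for null. The OB libraries held 504, 514 and 579.5 CPM for WT against 348, 357 and 378 for null. The genotypes did not overlap in any of the 3 cell types, and null was higher in BMM and OC and lower in OB. The log2 ratios were 0.50 (SE 0.07, adjusted p = 3.86e-05) in BMM, 0.80 (SE 0.06, adjusted p = 1.34e-09) in OC and −0.56 (SE 0.05, adjusted p = 6.07e-06) in OB. A correction for the length and GC content of transcripts left all of them past the threshold but reduced the BMM value to 0.22 and the OB value to −0.28. Per length, Cyba was the most abundant of the 4 oxidase genes in each group, at 3014 ± 56.3 TPM in WT BMM (SD, n = 6).

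The 2 membrane subunits were also set against each other. The ratio of Cyba to Cybb TPM was 8.93 ± 0.366 (SD, n = 6) in WT BMM, 5.83 ± 0.894 in null BMM and 6.24 ± 1.04 in null OC. In WT OC it was 35.8 ± 3.94, the highest of the 6 groups, and its libraries lay above those of every other group. In OB it was 21.5 ± 2.24 in WT and 17.8 ± 2.56 in null, with overlapping ranges. These ratios are a description and were not tested.

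Ncf1 and Ncf4 encode cytosolic subunits, of which the NCF1 protein organises the complex and NCF4 binds phagosomal lipids. Ncf1 (chromosome 5, 134220053 to 134229625, − strand) gave 182, 201 and 214 CPM in WT BMM against 281, 343 and 394 CPM in null BMM. In OC it gave 69.4, 75.4 and 82.8 CPM for WT against 241, 284 and 315 for null. In OB it gave 49.7, 61.0 and 65.6 CPM for WT against 32.1, 42.3 and 47.6 for null. As for Cyba, the genotypes did not overlap in any cell type, with null higher in BMM and OC and lower in OB. Its log2 ratios were 0.75 (SE 0.08, adjusted p = 1.58e-06) in BMM, 1.92 (SE 0.07, adjusted p = 2.53e-13) in OC and −0.50 (SE 0.09, adjusted p = 7.18e-04) in OB.

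Ncf4 (chromosome 15, 78244801 to 78262580, + strand) did not follow the other subunits in OC. It gave 139, 147 and 154 CPM in WT BMM against 389, 416 and 443 CPM in null BMM, with no overlap and a log2 ratio of 1.50 (SE 0.06, adjusted p = 4.93e-12). Its OC values were 385, 416 and 430.2 CPM for WT against 357, 386 and 409 for null. These groups overlapped, and the log2 ratio of −0.10 (SE 0.05, adjusted p = 0.0901) did not pass the threshold, with a 95% interval of −0.20 to 0.01. Under the length and GC correction it did pass, at −0.18 (adjusted p = 8.65e-04). The Ncf4 levels of null BMM, WT OC and null OC overlapped, and WT BMM lay below them. In OB the values were 54.5, 60.3 and 67.2 CPM for WT against 45.0, 51.2 and 61.8 for null, which overlapped. That log2 ratio was −0.23 (SE 0.08, adjusted p = 0.0408), and it no longer passed in 9 of 12 fits with 1 library removed, nor without the filter on low counts (adjusted p = 0.0524). Under the length and GC correction the OB value was −0.04 (adjusted p = 0.796). Per length, Ncf4 exceeded Ncf1 in all groups, by 1.75 ± 0.108 times in WT BMM and 12.4 ± 1.34 times in WT OC.

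**Figure D2:**
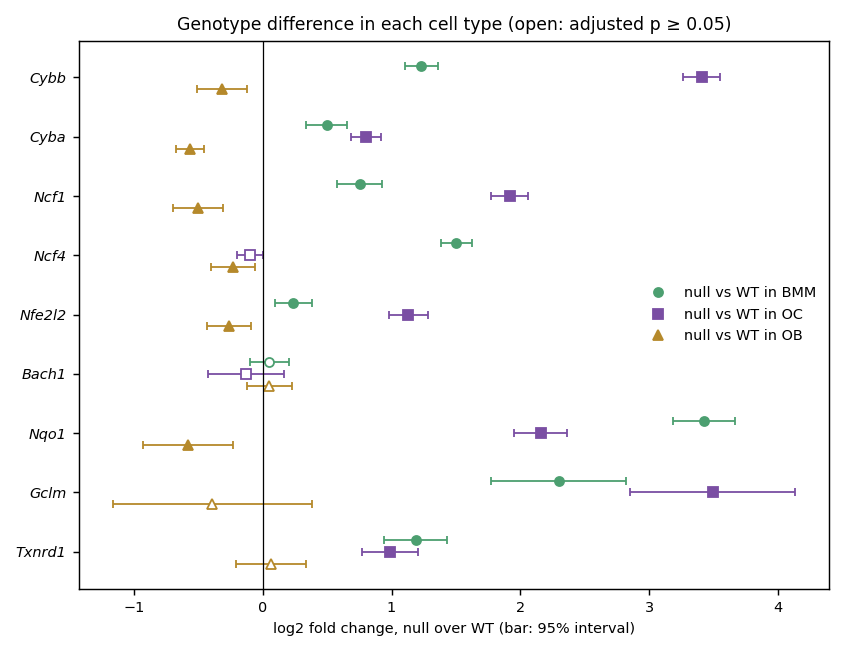
Log2 ratio of null over WT (x axis) for each gene (y axis) in BMM (circles), OC (squares) and OB (triangles), with bars for the 95% interval and open symbols where the adjusted p was 0.05 or more. Cybb and Gclm have their largest values in OC, Nqo1 and Ncf4 in BMM, and the OB symbols of 7 genes lie below 0.

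The other oxidase genes were read from a list of 16, of which 10 had enough counts to be tested in BMM, 9 in OC and 12 in OB. In BMM 4 were higher in null and none lower (median log2 ratio 0.09), where 27.0% of all genes tested were higher and 52.4% changed. In OC 7 were higher and 1 lower (median 0.66), where 32.4% of all genes were higher and 33.1% lower. In OB none was higher and 4 were lower (median −0.12), where 16.9% of all genes were lower. Rac2, the GTPase of blood cells that completes the complex, rose in BMM by 1.27 (SE 0.05) and in OC by 0.38 (SE 0.05), with adjusted p-values of 1.07e-11 and 2.87e-06. Cybc1, a chaperone needed to make the NOX2 protein, gave 0.27 (SE 0.05, adjusted p = 5.82e-04) in BMM and 1.12 (SE 0.06, adjusted p = 1.22e-10) in OC. Neither Rac2 nor Cybc1 passed in OB (adjusted p = 0.179 and 0.151).

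Hvcn1 encodes the proton channel that balances the charge the oxidase moves. Its level in OC was 83.7 ± 5.84 CPM (SD, n = 6) in WT and 315 ± 23.9 CPM in null, with a log2 ratio of 1.92 (SE 0.06, adjusted p = 1.34e-13), close in size to that of Ncf1. In OB it fell, with −0.55 (SE 0.08, adjusted p = 2.12e-04). Nox1 and Nox4 encode other catalytic subunits. Nox1 was low, at 0.816 ± 0.182 CPM in WT BMM against 2.47 ± 1.08 CPM in null BMM (log2 ratio 1.59, SE 0.30, adjusted p = 3.07e-04). Nox4, a constitutively active enzyme, had 31.5 ± 5.75 CPM in WT OB against 32.6 ± 7.30 CPM in null OB, and its OB log2 ratio did not pass (0.04, SE 0.16, adjusted p = 0.873). In OC it was the 1 oxidase gene that was lower in null, at 0.588 ± 0.181 CPM against 1.19 ± 0.119 CPM (−0.97, SE 0.26, adjusted p = 0.00365).

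Nfe2l2 (chromosome 2, 75675513 to 75704641, − strand), the gene of NRF2, gave 228, 252 and 272 CPM in WT BMM against 254, 289 and 328 CPM in null BMM. In OC it gave 107, 113 and 119 CPM for WT against 207, 249.8 and 288 for null. The BMM groups overlapped and the OC groups did not. The log2 ratio was 0.24 (SE 0.07, adjusted p = 0.00869) in BMM and 1.13 (SE 0.07, adjusted p = 4.94e-10) in OC. In OB the values were 165, 181 and 197 CPM for WT against 126, 149 and 182 for null, which overlapped. That log2 ratio was −0.26 (SE 0.08, adjusted p = 0.0214), and it did not pass without WT OB replicate 3 (−0.23, adjusted p = 0.0504). WT OC was the lowest of the 6 groups for this gene, and none of its libraries reached those of another group. The processed transcript Nfe2l2-202 held 8.54% ± 1.34 (SD, n = 6) of the gene's TPM in WT BMM and 1.10% ± 0.253 in null BMM. In OC it held 9.61% ± 1.79 in WT and 0.801% ± 0.403 in null, and the genotypes overlapped in neither. In OB the shares were 1.30% ± 0.313 in WT and 1.15% ± 0.226 in null, which overlapped. These apportioned shares were not tested.

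Bach1 (chromosome 16, 87698945 to 87733346, + strand), the repressor, did not pass the threshold in any genotype comparison. It gave 72.0, 78.5 and 86.9 CPM in WT BMM against 72.2, 79.6 and 90.4 CPM in null BMM. Values in OC were 67.5, 72.6 and 80.6 CPM for WT against 39.5, 73.5 and 81.9 for null, where replicates 3 and 6 gave 39.5 and 52.1 CPM. In OB it gave 36.4, 43.9 and 47.7 CPM for WT against 39.9, 43.8 and 50.7 for null. The genotypes overlapped throughout. The 95% interval of the log2 ratio was −0.10 to 0.20 in BMM, −0.42 to 0.17 in OC and −0.12 to 0.23 in OB. In BMM the log2 ratio changed sign with the setting. In BMM it was 0.05 (adjusted p = 0.560), −0.16 with a correction for average transcript length and 0.20 under the length and GC correction, which passed (adjusted p = 0.0439). In OC it was −0.13 (adjusted p = 0.437), and 0.09 without null replicates 3 and 6. Those replicates held the lowest Bach1 values of the group, so leaving them out had to raise the ratio. The apportioned transcripts of Bach1 differed too, since the retained-intron transcript Bach1-203 held 29.9% ± 5.42 (SD, n = 6) of its TPM in WT BMM and 14.2% ± 12.6 in null BMM. That transcript held 25.0% ± 4.24 in WT OC and 13.1% ± 9.75 in null OC, where it held 18.1% ± 7.36 (n = 4) without replicates 3 and 6. Its share was set by the quantifier and was not tested.

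Activator and repressor transcripts were also set against each other per length. The ratio of Nfe2l2 to Bach1 TPM was 3.27 ± 0.187 (SD, n = 6) in WT OC, the lowest group, and 8.64 ± 1.87 in null OC, or 7.51 ± 0.620 (n = 4) there without replicates 3 and 6. It was 6.37 ± 0.462 in WT BMM and 8.21 ± 1.12 in null BMM, where the TPM ratio of null to WT was 1.03 for Nfe2l2 and 0.805 for Bach1, the gene whose direction turns with the setting. In OB it was 8.91 ± 1.06 in WT and 7.47 ± 0.752 in null. The WT OC libraries lay below those of all other groups, and the ratio was not tested. Null OC replicates 3 and 6 were set apart by low Bach1, the denominator, so the lower ratio without them carries no separate evidence.

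Nqo1 (chromosome 8, 107388225 to 107403206, − strand) encodes a quinone reductase and is the standard readout of NRF2 activity. It gave 4.84, 6.17 and 8.27 CPM in WT BMM against 60.0, 67.7 and 76.1 CPM in null BMM, with no overlap. The log2 ratio in BMM was 3.43 (SE 0.11, adjusted p = 9.60e-13), the largest of the 9 genes in that cell type. OC held 14.2, 17.9 and 19.6 CPM for WT against 64.8, 79.5 and 86.6 for null, again without overlap, with a log2 ratio of 2.16 (SE 0.10, adjusted p = 5.22e-12). The smaller fold in OC went with a higher WT level, while the null levels of BMM and OC overlapped. In OB it gave 13.5, 17.0 and 18.3 CPM for WT against 7.40, 11.5 and 16.5 for null, which overlapped. The OB log2 ratio was −0.58 (SE 0.16, adjusted p = 0.0143), and under the length and GC correction it was −0.44 and did not pass (adjusted p = 0.0651).

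Gclm (chromosome 3, 122245557 to 122270732, + strand) encodes the modifier subunit of the enzyme that limits glutathione synthesis. It gave 92.1, 129 and 183 CPM in WT BMM against 379, 689 and 935 CPM in null BMM. Its OC levels were 34.5, 81.4 and 98.7 CPM for WT against 365, 929.8 and 1076 for null. Neither pair overlapped, although this gene had the largest SD relative to its mean of the 9 in each group. The log2 ratio was 2.30 (SE 0.24, adjusted p = 3.88e-06) in BMM and 3.49 (SE 0.29, adjusted p = 2.78e-07) in OC. Replicate 6 of null OC held the lowest value of its group, far from the other 5. In OB the groups overlapped, at 41.7, 107 and 165 CPM for WT against 37.8, 76.6 and 120.2 for null, and the log2 ratio of −0.39 (SE 0.35, adjusted p = 0.437) did not pass. Counts of Gclm were spread over 6 annotated transcripts, of which the short coding transcript Gclm-206 held 37.3% ± 1.69 (SD, n = 6) of TPM in WT BMM and 41.5% ± 2.95 in null OC. The pseudogene Gm6061 lies within the gene and never held more than 3.69% of the Gclm count of a library.

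Txnrd1 (chromosome 10, 82833951 to 82897712, + strand) encodes the cytosolic thioredoxin reductase. It gave 53.0, 60.6 and 83.5 CPM in WT BMM against 115, 149 and 176 CPM in null BMM. In OC it gave 76.5, 90.5 and 97.7 CPM for WT against 141, 169 and 235 for null, of which replicate 3 was the highest. The genotypes did not overlap in either cell type, and the log2 ratios were 1.19 (SE 0.11, adjusted p = 3.44e-07) in BMM and 0.99 (SE 0.10, adjusted p = 2.37e-07) in OC. In OB they overlapped, at 23.3, 26.2 and 34.5 CPM for WT against 22.03, 27.9 and 36.2 for null. The OB value of 0.06 (SE 0.13, adjusted p = 0.740) did not pass, with a 95% interval of −0.21 to 0.34.

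NRF2 binds the antioxidant response element with a small MAF partner. The core of that element, TGACNNNGC or its reverse complement GCNNNGTCA, was searched on both strands in RefSeq promoter windows (GRCm38.p6, 250 bases before to 50 after a start). It was in at least 1 window of 3 of the 8 genes that had one, and in 12.4% of all 32851 windows. The 3 are shown with the match in capitals and 10 flanking bases.
Nfe2l2, chr2:75704885-75704913, − strand: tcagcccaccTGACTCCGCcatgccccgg
Gclm, chr3:122245413-122245441, + strand: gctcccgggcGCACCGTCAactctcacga
Txnrd1, chr10:82859104-82859132, + strand: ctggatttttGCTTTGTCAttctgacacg
The match began 240 bases before the start in Nfe2l2, 134 before it in Gclm and 92 before it in Txnrd1, where 1 of 3 windows held it. The Gclm and Txnrd1 matches read on the opposite strand. The Nqo1, Cybb, Cyba, Ncf1 and Bach1 windows did not hold these letters. Of these genes, Nqo1, Cybb, Cyba and Ncf1 were higher in null BMM and OC, as were the 3 with a match. Among genes with a window, the letters were in 8 of 20 other textbook targets, 3 of 12 NRF2 regulators, 1 of 15 antioxidant genes and none of 12 other oxidase genes. Binding of NRF2 was not measured, sequence outside these windows was not searched, and the part of this element in the levels was not tested. The core of the macrophage factor PU.1, GAGGAAGT or ACTTCCTC, was in no window of the 8 genes that had one, in 1 of the 12 other oxidase genes, in 1 of the 15 antioxidant genes and in 3.2% of all windows.

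The wider NRF2 target list held 26 genes besides Nqo1, Gclm and Txnrd1, and most of those tested rose in null BMM and OC. In BMM 19 of 25 were higher and 2 lower (median log2 ratio 0.62), where 27.0% of all genes tested were higher and 25.3% lower. In OC 22 of 25 were higher and 1 lower (median 1.02), where 32.4% were higher and 33.1% lower over all genes. In OB 3 of 26 were higher and 12 lower (median −0.19), where 15.5% were higher and 16.9% lower over all genes. Slc7a11, the cystine importer that feeds glutathione synthesis, had the largest rise of the list in each cell type. Its level was 6.40 ± 1.58 CPM (SD, n = 6) in WT BMM against 178 ± 35.1 CPM in null BMM, a log2 ratio of 4.81 (SE 0.17, adjusted p = 8.88e-12). In OC it was 7.94 ± 1.07 CPM in WT against 199 ± 28.9 CPM in null (4.65, SE 0.12, adjusted p = 4.82e-15), and in OB the change was 0.50 (SE 0.16, adjusted p = 0.0245).

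Hmox1, which encodes the heme-degrading enzyme that BACH1 represses, was at 127 ± 6.13 CPM in WT OC against 1063 ± 212 CPM in null OC. Its log2 ratio was 0.69 (SE 0.10, adjusted p = 3.26e-05) in BMM and 3.07 (SE 0.12, adjusted p = 1.07e-12) in OC. Gclc, the catalytic partner of Gclm, rose by 0.87 (SE 0.16) in BMM and 0.86 (SE 0.21) in OC, with adjusted p-values of 2.82e-04 and 0.00197. Srxn1, which repairs oxidised peroxiredoxins, gave 1.22 (SE 0.14, adjusted p = 2.42e-06) in BMM and 0.94 (SE 0.09, adjusted p = 1.25e-07) in OC. None of Hmox1, Gclc and Srxn1 passed in OB. The targets lower in null BMM were Osgin1, an oxidative stress-induced growth inhibitor, with −1.02 (SE 0.10, adjusted p = 3.77e-07), and G6pdx, a source of NADPH, with −0.28 (SE 0.07, adjusted p = 0.00321). Both were higher in null OC, with 0.46 (SE 0.11, adjusted p = 0.00121) and 0.80 (SE 0.07, adjusted p = 2.66e-08). The target lower in null OC was Txn1, thioredoxin itself, with −0.67 (SE 0.10, adjusted p = 1.65e-05). Counts of Txn1, like those of Prdx1, Ftl1 and Fth1, are uncertain because pseudogene copies of these genes exist. Gsta4, a glutathione transferase, had the largest fall in OB (−1.83, SE 0.24, adjusted p = 8.02e-05).

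Among 13 genes that control NRF2, 12 were tested in each cell type. In BMM 6 were higher and 2 lower (median 0.28), in OC 5 higher and 2 lower (median −0.10), and in OB 2 higher and 1 lower (median 0.06). Over all genes 52.4% changed in BMM, 65.5% in OC and 32.5% in OB, so the share of regulators that changed lay above it in BMM and below it in OC and OB. Keap1, the inhibitor that marks NRF2 for degradation, gave 0.13 (SE 0.06, adjusted p = 0.0740) in BMM, which did not pass, and 0.99 (SE 0.06, adjusted p = 5.25e-10) in OC. Its OC level was 51.0 ± 1.97 CPM in WT against 101 ± 8.30 CPM in null. The small MAF partners did not move as 1 group. Mafg was higher in null BMM and OC, with 0.48 and 1.12 (SE 0.06, adjusted p = 1.16e-10). Mafk was lower in both, with −0.997 (SE 0.09, adjusted p = 1.37e-07) in BMM and −0.44 in OC, and Maff was higher in BMM (0.92, SE 0.18, adjusted p = 4.78e-04). Bach2, the BACH1 paralog, was low, at 1.90 ± 0.415 CPM in WT OC against 0.750 ± 0.628 CPM in null OC (−1.32, SE 0.44, adjusted p = 0.0140), and it rose in OB (0.61, SE 0.18, adjusted p = 0.0153).

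A list of 16 other antioxidant genes had members called in both directions. Beside dismutases, catalase, glutathione peroxidases and peroxiredoxins it held Gss of glutathione synthesis, Txn2, Txnrd2 and Glrx of the thiol systems, and Txnip, an inhibitor of thioredoxin. In BMM 10 of 15 were higher and 4 lower (median 0.67), in OC 7 of 15 were higher and 6 lower (median −0.09), and in OB 1 of 16 was higher and 10 lower (median −0.25). The shares over all genes were 27.0% higher and 25.3% lower in BMM, 32.4% and 33.1% in OC, and 15.5% and 16.9% in OB. Txnip was lower in null BMM, OC and OB (−0.80, −0.70 and −0.31, adjusted p = 4.42e-04, 1.74e-04 and 0.0405), and Gss was higher in BMM (0.92, SE 0.06, adjusted p = 4.94e-09) and lower in OC (−0.59, SE 0.08, adjusted p = 2.94e-06). Sod2, the mitochondrial superoxide dismutase, was at 95.04 ± 6.60 CPM in WT BMM against 823 ± 89.5 CPM in null BMM (3.12, SE 0.08, adjusted p = 8.96e-14). Glrx, glutaredoxin, rose most in OC (3.13, SE 0.11, adjusted p = 2.60e-13). Gpx3, a secreted glutathione peroxidase, was lower in null BMM (−1.03, SE 0.12, adjusted p = 2.48e-06) and higher in null OC (1.04, SE 0.12, adjusted p = 9.78e-07), while Prdx3, a mitochondrial peroxiredoxin, was lower in null OC (−0.87, SE 0.06, adjusted p = 2.49e-09). In OB, Sod3, the extracellular dismutase, was the gene that rose (0.28, SE 0.09, adjusted p = 0.0244), and Cat, catalase, had the largest fall (−0.46, SE 0.08, adjusted p = 3.56e-04).

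**Figure D3:**
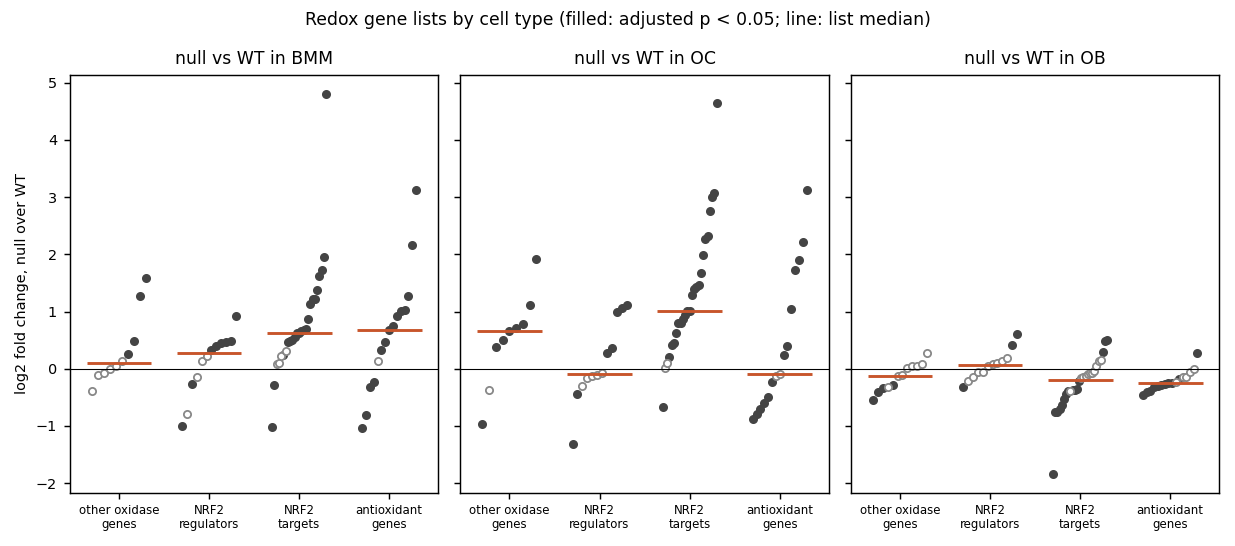
Log2 ratio of null over WT (y axis) for each tested gene of 4 lists (x axis: other oxidase genes, NRF2 regulators, NRF2 targets, antioxidant genes) in BMM, OC and OB, filled where the adjusted p was under 0.05, with a red line at the list median. The target median is 0.62 in BMM, 1.02 in OC and −0.19 in OB.

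RANK-L changed most of the 9 genes in WT cultures and few of them in null cultures. In WT, OC differed from BMM in 8 of the 9, with 3 higher and 5 lower, where 30.4% of 12671 genes were higher, 30.1% lower and 60.5% changed. In null cultures 2 of the 9 passed, both lower in OC, where 6.77% of the same genes were higher, 6.08% lower and 12.9% changed. The number changed, 1629, was 841, 811 and 949 without null BMM replicate 2, 3 or 4 and 1046 without null OC replicate 3. In WT, Cybb fell, with libraries between 784 and 966 CPM in BMM and between 152 and 180.0 CPM in OC, a log2 ratio of −2.42 (SE 0.06, adjusted p = 4.79e-22). Ncf1 and Cyba fell too, with log2 ratios of −1.40 (SE 0.08, adjusted p = 5.01e-15) and −0.45 (SE 0.06, adjusted p = 9.35e-07). Ncf4 rose, with libraries between 139 and 154 CPM in BMM and between 385 and 430.2 CPM in OC (1.48, SE 0.05, adjusted p = 1.23e-19), so these 2 cytosolic subunits moved in opposite directions.

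Among the NRF2 pathway genes, Nfe2l2 fell with RANK-L in WT (−1.16, SE 0.07, adjusted p = 5.53e-14), while Nqo1 rose (1.46, SE 0.11, adjusted p = 3.79e-12) and Txnrd1 rose (0.47, SE 0.11, adjusted p = 6.12e-04). Gclm fell (−0.82, SE 0.27, adjusted p = 0.0119), a call lost with a correction for average transcript length (−0.85, adjusted p = 0.0581). Bach1 did not pass (−0.11, SE 0.12, adjusted p = 0.437). In null cultures Cybb gave −0.24 (SE 0.06, adjusted p = 0.0122) and Nfe2l2 gave −0.26 (SE 0.07, adjusted p = 0.0195), and without null OC replicates 3 and 6 neither passed (−0.17, adjusted p = 0.0560, and −0.16, adjusted p = 0.108). Those replicates held the lowest null OC values of both genes, so leaving them out had to shrink both falls. The Nfe2l2 call was also lost without null BMM replicate 2 or 3 or null OC replicate 3 (adjusted p = 0.0580, 0.0550 and 0.0520). Ncf1 was near the threshold in null cultures (−0.22, SE 0.08, adjusted p = 0.0520) and passed with DESeq2 (−0.22, adjusted p = 0.0382) and under the length and GC correction (−0.31, adjusted p = 0.0141). It also passed without WT BMM replicate 3, null BMM replicate 1 or 5, or null OC replicate 1 or 4 (adjusted p = 0.0448, 0.0196, 0.0186, 0.0414 and 0.0431). The number passing in null cultures ran from 1 to 4 when each library was left out in turn, with 1 without null BMM replicate 2 or 3 or null OC replicate 3, and 4 without null OC replicate 1.

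The difference between the genotypes in the RANK-L response was tested as an interaction, which passed for 7 of the 9 genes, where 25.3% of genes passed upward, 26.1% downward and 51.3% in all. It was positive, that is less fall or more rise in null, for Cybb (2.19, SE 0.09, adjusted p = 1.12e-17), Cyba (0.32, SE 0.09, adjusted p = 0.00460), Ncf1 (1.18, SE 0.11, adjusted p = 4.56e-10), Nfe2l2 (0.90, SE 0.10, adjusted p = 1.79e-08) and Gclm (1.21, SE 0.38, adjusted p = 0.0107). Under the length and GC correction the value for Cyba was 0.48. It was negative for Ncf4 (−1.59, SE 0.07, adjusted p = 1.43e-16) and Nqo1 (−1.26, SE 0.15, adjusted p = 3.97e-08). Both genes rose with RANK-L in WT. The null BMM libraries overlapped those of WT OC for Ncf4 and lay above them for Nqo1. Bach1 (−0.17, SE 0.16, adjusted p = 0.416) and Txnrd1 (−0.19, SE 0.16, adjusted p = 0.336) did not pass. Without null OC replicates 3 and 6 the number passing was again 7, and the value for Bach1 was 0.04 (adjusted p = 0.782). That Bach1 value had to rise, since these replicates were set apart by their low Bach1. These comparisons share libraries with the genotype comparisons above and are no separate evidence. The osteoclast marker sum lay between 87.9 and 125 CPM in WT BMM and between 28963 and 31251 CPM in WT OC. In null it lay between 238 and 309.8 CPM in BMM and between 337 and 704 CPM in OC, and its part in these differences was not tested.

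**Figure D4:**
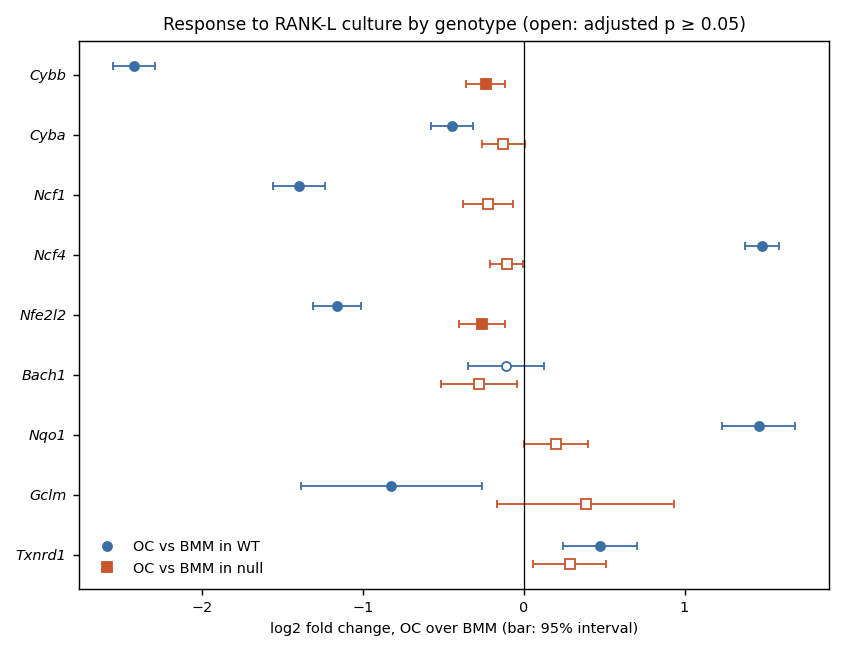
Log2 ratio of OC over BMM (x axis) for each gene (y axis) in WT (circles) and null (squares), with bars for the 95% interval and open symbols where the adjusted p was 0.05 or more. WT values run from −2.42 for Cybb to 1.48 for Ncf4, and null values from −0.28 for Bach1 to 0.39 for Gclm.

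In OB the fall of the oxidase genes went with a lower macrophage marker sum. WT OB was compared with WT BMM to set its levels. There 7 of the 9 genes were lower in OB and 1 was higher, where 41.5% of 14278 genes were higher, 35.3% lower and 76.8% changed. Cybb gave −2.35 (SE 0.08, adjusted p = 2.27e-25), Ncf1 −1.76 (SE 0.09, adjusted p = 3.57e-20) and Nqo1, the gene that was higher, 1.39 (SE 0.14, adjusted p = 2.17e-11). Gclm did not pass (−0.40, SE 0.30, adjusted p = 0.223). Cybb in WT OB was at 149 to 192 CPM with the macrophage sum at 12407 to 15491 CPM. In null OB Cybb was at 104 to 156 CPM with the macrophage sum at 6743 to 9665 CPM, and the part of macrophages in the lower level was not tested. Of the osteoclast markers, the sum was 3905 to 5009 CPM in WT OB against 4708 to 7170.0 CPM in null OB.

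The genotype difference itself differed between OB and OC for 7 of the 9 genes, all with a lower value in OB, where 27.8% of 14278 genes had a higher value, 27.4% a lower one and 55.3% either. The OB value minus the OC value was −3.71 (SE 0.11, adjusted p = 8.12e-26) for Cybb, −2.40 (SE 0.12, adjusted p = 4.07e-19) for Ncf1 and −1.35 (SE 0.09, adjusted p = 9.07e-16) for Cyba. It was −3.87 (SE 0.44, adjusted p = 3.53e-09) for Gclm, −2.72 (SE 0.19, adjusted p = 2.78e-15) for Nqo1 and −0.91 (SE 0.17, adjusted p = 3.38e-05) for Txnrd1. Nfe2l2 gave −1.37 (SE 0.11, adjusted p = 9.88e-14). Ncf4 (−0.12, SE 0.09, adjusted p = 0.241) and Bach1 (0.19, SE 0.15, adjusted p = 0.293) did not pass, with 95% intervals of −0.29 to 0.05 and −0.12 to 0.51.

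In order of level, Cybb, Cyba and Ncf1 shared 1 arrangement at the top, null BMM, then null OC, then WT BMM. Null BMM and null OC overlapped for each of the 3, and WT BMM lay apart below them. For Cybb, WT OB, WT OC and null OB followed and overlapped in turn, while for Cyba and Ncf1 the order WT OC, WT OB and null OB had no overlap between neighbours. For Nqo1, Gclm and Txnrd1 the highest group was null OC, followed by null BMM with overlap, and no WT library reached them. Nqo1 was lowest in WT BMM, Gclm in WT OC and Txnrd1 in WT OB, each overlapping its neighbour.

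CPM and TPM were set side by side because only TPM is per length, and it depends on which transcripts fill a library. The median log2 ratio of null to WT over all tested genes was −0.13 in BMM, −0.23 in OC and 0.18 in OB in TPM, beside 0.01, −0.03 and 0.01 in CPM. In TPM the ratio of group means, null over WT, was 1.96 in BMM, 8.75 in OC and 0.934 in OB for Cybb. For Nqo1 it was 9.75, 3.87 and 0.762, and for Gclm 4.71, 12.1 and 0.821. For Nfe2l2 it was 1.03, 1.83 and 0.949. Bach1 turned from 1.03 in CPM to 0.805 in TPM in BMM, and the other 8 genes kept their direction on both scales in the 3 cell types.

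The genes whose level was most like Cybb over the 36 libraries, among 8949 genes with a mean of at least 10 CPM, were Lpcat2 (Pearson r = 0.989 of log2 CPM), Creg1 (0.987), Ikbke (0.987), Cat (0.986) and Slamf7 (0.985). Cat, catalase, was at 825 CPM in WT BMM, 1127 in null BMM, 279 in WT OC and 1045 in null OC. For Nqo1 they were Ass1 (0.973), Cd55 (0.961), Slc13a3 (0.960), C3 (0.950) and Ugt1a6a (0.942). Ass1, argininosuccinate synthase, was at 23.5 CPM in WT BMM, 420 in null BMM, 49.6 in WT OC and 593 in null OC. The 36 points form 6 groups that share cell type and genotype, so these values describe likeness over groups and carry no p.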

How the data were processed

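RNA was sequenced in 36 libraries, 6 in each of 6 groups taken from the labels. The deposited tables give, per the file headers, an estimated count and a TPM value for each transcript. Kallisto and DESeq2 are named in the submitters' processing notes, and the human build GRCh38 is named there although the identifiers are mouse Ensembl transcripts. Versions, and whether counting used strand, were not given in the sources used here, so overlapping genes are uncertain (Gm20388 for Cyba, Gtf2ird2 for Ncf1).

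Of 88198 transcripts, 97.64% were matched to GENCODE M21 (GRCm38), and the rest held at most 0.96% of a library's counts. Deposited estimated counts and TPM values were summed per gene, and counts were rounded. Genes passing filterByExpr were scaled with TMM and tested with edgeR 4.0.16 (quasi-likelihood, robust, R 4.3.3), with Benjamini-Hochberg adjustment over all genes tested. Each SE was worked back from that test, as the absolute log2 ratio divided by the square root of its F statistic. The 95% intervals were built from these SE values, so neither is separate from the p-value. Genotype was tested on the 12 libraries of a cell type, RANK-L and its interaction on the 24 of BMM and OC, and OB against the others on all 36. CPM used TMM library sizes. The spread within groups (biological coefficient of variation) was 14.8% to 15.9%, and the depth lets a gene at or under 3 counts in a library count as not detectable, for counting error only. The closest pair of replicates, WT OC 3 and 6, differed by more than sampling noise (chi-square 3.46 for each gene), and every library was counted. The steps were tested on simulated data in which far fewer genes changed than here and cell types did not otherwise differ. That run does not cover changes as wide as those in these data.

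The 9 genes and the lists were chosen with earlier results of these data known. Named from each list were fixed genes and, in each genotype comparison, the genes with the largest rise and fall among those called and averaging 1 CPM or more. G6pdx, Txnip and Gss were named after their values were seen. Alternatives were RLE scaling, no filter, DESeq2 1.42.0, a replicate block, corrections for average length and for length with GC content (lowess span 0.3), 1 fit of all 36 libraries, removal of each library in turn, and, chosen after seeing the data, leaving out null OC replicates 3 and 6.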

Additional observations from a re-analysis of the deposited data

Results flagged for a closer look

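Within groups of 6, 3 values lay far from the other 5 (Dixon's test at the 95% level), among 54 groups examined, where chance gives about 1 in 20. Cybb in null OB replicate 4 was 104 CPM, with the other 5 at 139 to 156 CPM. Gclm in null OC replicate 6 was 365 CPM, and Txnrd1 in null OC replicate 3 was 235 CPM. Leaving out each library in turn kept the OC calls of Gclm (log2 fold change 3.34 to 3.65) and Txnrd1 (0.89 to 1.05) and the OB call of Cybb (−0.36 to −0.23).

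The response to RANK-L differed between genotypes in the interaction test for Cybb (2.19), Cyba (0.32), Ncf1 (1.18), Ncf4 (−1.59), Nfe2l2 (0.90), Nqo1 (−1.26) and Gclm (1.21). The genotype difference in OB minus that in OC passed for Cybb (−3.71), Cyba (−1.35), Ncf1 (−2.40), Nfe2l2 (−1.37), Nqo1 (−2.72), Gclm (−3.87) and Txnrd1 (−0.91). All are log2 values from edgeR with their SE and adjusted p in the text above.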

How the results depend on the processing

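No called value of the 9 genes changed sign under any alternative run. With each library left out in turn, 953 of the gene values kept their side of the threshold, 13 lost the call and 6 gained it. Under the other settings 484 kept it, 7 lost it and 4 gained it. Those that moved are given beside their genes, except Txnrd1 in null OC against null BMM without null OC replicate 1 (0.34, adjusted p = 0.0446), and Ncf4 in OB with the average length correction (−0.20, adjusted p = 0.0670). The number of the 9 genes called in OC against BMM of null cultures was 2, ran from 1 to 4 with 1 library left out, and was 0 without null OC replicates 3 and 6. That last removal had to shrink the falls of Cybb and Nfe2l2, the 2 genes called. The number in OB was 6 and ran from 4 to 6. Over all genes, calls in OB fell from 4419 to 2291 under the length and GC correction, and the 1629 calls in OC against BMM of null cultures ran from 811 to 2143 with 1 library left out. With RLE scaling the median of all genes in WT OB over WT BMM moved from 0.08 to 0.14.

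Most same-numbered libraries did not deviate together (correlations from −0.28 to 0.18 over 7 pairs of groups), so the numbers were not taken as pairs. For WT OB with null OB the correlations ran from −0.20 to 0.18, and 3 of 6 were above 0.1. For WT BMM with WT OC 1 of 6 was above 0.1, and none was in the rest. With the replicate block, 5648, 7564 and 4086 genes were called in BMM, OC and OB, and the 9 genes gave 8, 7 and 6. With 6 libraries a group, precision is limited to the intervals given, and genes at or under 3 counts in a library were not detectable at this depth.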
